A study of Mus musculus with 120 samples.

Results

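Mouse chromosome 16 carries App, the gene that was edited to make the App-NLGF mouse, and 335 of the 8961 windows of 1 kb that the authors called as differentially methylated between App-NLGF and wild-type mice lay on it. They were chosen by chromosome alone, whatever their size, direction or gene. The windows came from 6 comparisons, hippocampus and blood at postnatal weeks 3, 8 and 24, each of 10 App-NLGF libraries with 10 wild-type libraries of the same tissue and age, and each giving 1 list. Every group held 5 males and 5 females, and the series' design text names sex as a covariate of the comparison. App-NLGF mice, whose genotype the labels write APP-nlgf, carry in their own App gene a humanised amyloid-beta sequence with the Swedish, Iberian and Arctic changes, so that App is driven by its own promoter in every cell that uses it. The wild-type mice carry no such edit, and the labels give no strain for either genotype. Whole-genome bisulfite sequencing reads methylated cytosines in DNA. For each window the deposited values are how far methylation differed, in percentage points, with its raw and adjusted p. No value per library was used here, so the spread between animals and the depth behind each difference are unknown and the tissue labels could not be checked against markers. Both tissues are mixtures of cell types, and a shift in cell makeup cannot be told apart from a methylation difference within cells. The sign is taken to mean App-NLGF minus wild type, which only the name of the comparison states. All differences and adjusted p-values below are those of the authors' deposited table, which holds adjusted p-values under 0.1 and absolute differences of at least 10 points.

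App encodes the amyloid precursor protein, a membrane protein that beta- and gamma-secretase cut into amyloid-beta, the peptide of Alzheimer plaques. In mammals most methylated cytosines stand before a guanine, as CpG, and most CpGs are methylated except in CpG-rich promoters, where low methylation usually goes with an open promoter. Mouse chromosome 16 around and beyond App holds the same genes in much the same order as human chromosome 21, and a stretch nearer its other end matches human 22q11.

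App itself had no window in any of the 6 lists. Its promoter is shown first because it is the edited gene, and those of Adamts1, Gm46558, Synj1 and Olig2 follow because a window that was lower in App-NLGF covered them. Cep97 closes the set because its window was higher in App-NLGF. Each sequence is the 250 bases before a transcript start in RefSeq (build GRCm38.p6, the coordinates of mm10), read 5′ to 3′ on the gene's strand, with every CpG in capitals.
App promoter, chr16:85173708-85173957, minus strand: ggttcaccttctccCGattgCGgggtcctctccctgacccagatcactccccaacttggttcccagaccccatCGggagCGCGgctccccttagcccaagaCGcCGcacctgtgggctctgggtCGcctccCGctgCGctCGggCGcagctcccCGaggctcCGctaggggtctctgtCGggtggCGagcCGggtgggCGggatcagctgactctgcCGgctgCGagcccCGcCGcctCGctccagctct
Adamts1 promoter, chr16:85803114-85803363, minus strand: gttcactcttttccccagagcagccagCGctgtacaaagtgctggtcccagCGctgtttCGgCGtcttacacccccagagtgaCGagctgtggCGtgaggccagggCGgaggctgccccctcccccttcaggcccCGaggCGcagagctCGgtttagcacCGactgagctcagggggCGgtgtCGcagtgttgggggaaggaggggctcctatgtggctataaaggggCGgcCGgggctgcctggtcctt
Gm46558 promoter, chr16:85899550-85899799, plus strand: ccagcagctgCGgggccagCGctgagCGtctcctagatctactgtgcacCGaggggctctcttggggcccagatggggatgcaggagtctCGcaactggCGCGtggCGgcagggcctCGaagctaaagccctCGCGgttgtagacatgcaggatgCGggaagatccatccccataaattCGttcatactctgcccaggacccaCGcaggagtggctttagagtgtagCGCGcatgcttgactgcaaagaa
Synj1 promoter, chr16:91011309-91011558, minus strand: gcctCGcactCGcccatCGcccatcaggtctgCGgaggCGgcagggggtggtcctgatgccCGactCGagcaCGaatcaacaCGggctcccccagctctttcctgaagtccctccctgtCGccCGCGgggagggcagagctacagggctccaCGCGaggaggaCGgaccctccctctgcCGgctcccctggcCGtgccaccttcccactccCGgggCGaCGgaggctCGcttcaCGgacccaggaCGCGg
Olig2 promoter, chr16:91225300-91225549, plus strand: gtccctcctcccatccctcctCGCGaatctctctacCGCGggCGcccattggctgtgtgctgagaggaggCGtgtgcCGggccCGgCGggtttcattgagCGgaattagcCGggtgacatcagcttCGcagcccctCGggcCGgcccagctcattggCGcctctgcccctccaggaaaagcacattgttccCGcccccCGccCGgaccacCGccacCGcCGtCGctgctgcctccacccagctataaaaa
Cep97 promoter, chr16:55934849-55935098, minus strand: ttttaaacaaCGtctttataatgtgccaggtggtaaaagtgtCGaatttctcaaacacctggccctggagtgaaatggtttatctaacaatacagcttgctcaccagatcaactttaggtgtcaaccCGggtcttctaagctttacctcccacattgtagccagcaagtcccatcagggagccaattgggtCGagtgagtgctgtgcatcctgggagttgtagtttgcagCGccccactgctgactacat
The App promoter held 23 CpGs in these 250 bases, Adamts1 15, Gm46558 16, Synj1 24 and Olig2 22, whereas Cep97 held 5. The methylation of single CpGs in them was not analysed here.

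Chromosome 16 as a whole held called windows in about the share of its length. It carried 3.74% of them (95% Clopper-Pearson interval 3.36 to 4.15) and makes up 3.75% of the annotated length, which gave 3.42 windows per Mb on chromosome 16 and 3.43 per Mb on the other chromosomes. The share of a list that lay on chromosome 16 was 4.69% in hippocampus at week 3 (48 of 1024 windows), 3.91% at week 8 (29 of 742) and 3.90% at week 24 (37 of 949). In blood it was 3.30% at week 3 (38 of 1153), 3.42% at week 8 (155 of 4526) and 4.94% at week 24 (28 of 567). Intervals here and below count windows and do not describe animals. As background, the share of all windows tested that the authors called was 0.044% in hippocampus at week 3, 0.0318% at week 8 and 0.0408% at week 24, and 0.0495%, 0.196% and 0.0244% in blood at those ages. These shares rest on numbers of tested windows recovered from the p-values. The list of blood at week 8 was thus the longest and gave 155 of the 335 chromosome 16 windows.

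The balance of higher and lower windows on chromosome 16 followed the lists in part. Over all 6 lists, 123 chromosome 16 windows were higher in App-NLGF and 212 were lower. In hippocampus at week 24, 13 of 37 windows were higher in App-NLGF, or 35.1% (interval 20.2 to 52.5), against 59.5% of that list's windows elsewhere. This was the second lowest share of the 20 chromosomes, and the interval did not reach the share elsewhere. In blood at week 8, 31 of 155 were higher, or 20% (interval 14 to 27.2), against 10.8% elsewhere, the highest share of any chromosome in that list, where the others lay between 7.76% and 15.0%. Among windows of at least 15 points it was 33.3%, against 24.7% elsewhere, and 4 other chromosomes lay higher. In the other 4 lists the interval included the share elsewhere. In hippocampus 33.3% were higher at week 3 (16 of 48, interval 20.4 to 48.4), against 29.3% elsewhere, and 44.8% at week 8 (13 of 29, interval 26.4 to 64.3), against 55.0%. In blood 71.1% were higher at week 3 (27 of 38, interval 54.1 to 84.6), against 63.0% elsewhere and at most 69.4% on any other chromosome, and 82.1% at week 24 (23 of 28, interval 63.1 to 93.9), against 82.6%. At stricter limits chromosome 16 was no longer the highest in blood at week 3. It had 70.6% at an adjusted p under 0.05, where another chromosome reached 100.0%. Among windows of at least 15 points it had 70.0%, where another reached 83.9%. As background, windows called higher in App-NLGF made up 0.013%, 0.0174% and 0.0239% of all windows tested in hippocampus at weeks 3, 8 and 24, and 0.0313%, 0.0218% and 0.0202% in blood at those ages. These chromosome shares were looked at for all 20 chromosomes, and no test over animals stands behind them.

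**Figure D1:**
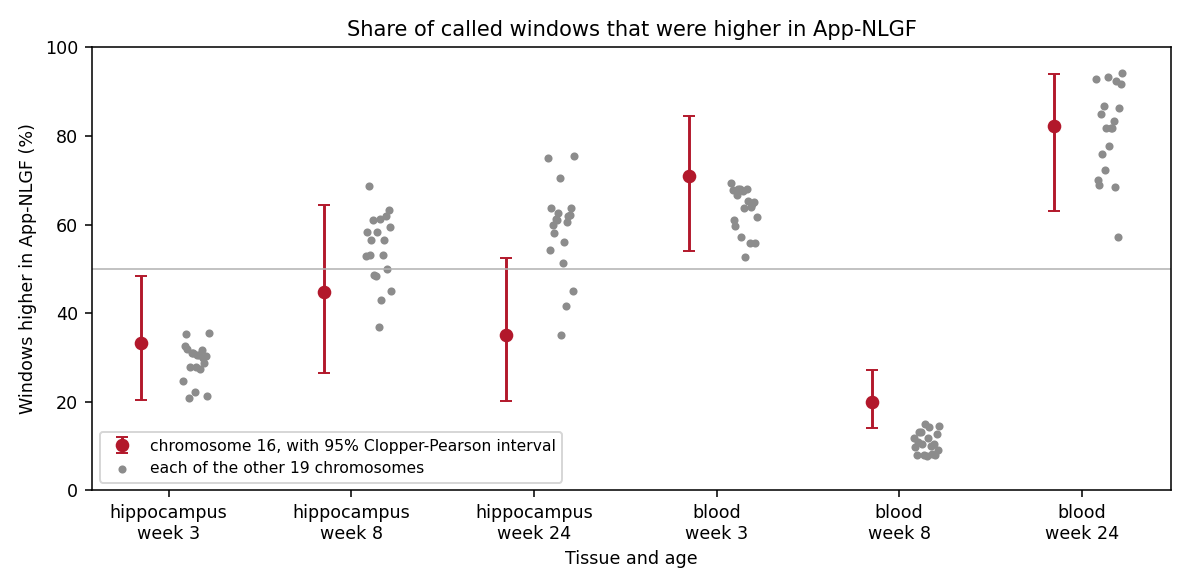
Share of called windows that were higher in App-NLGF (%, vertical axis) in each tissue and age (horizontal axis). Red points with bars are chromosome 16 with its 95% Clopper-Pearson interval and grey points are the other 19 chromosomes; chromosome 16 lies low in hippocampus at week 24, at 35.1%, and above every other chromosome in blood at week 3, at 71.1%, and at week 8, at 20%.

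The differences on chromosome 16 ran from -36.7 to 29.5 points. Their median absolute size was 12.8 points, against 12.6 points for windows elsewhere. The largest increase, 29.5 points in hippocampus at week 8 per the authors' deposited table, lay -65.5 Mb from App, and the largest decrease, -36.7 points in blood at week 3, lay -5.85 Mb from it, where a minus sign means lower coordinates. In what follows, below and above App mean lower and higher coordinates.

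**Figure D2:**
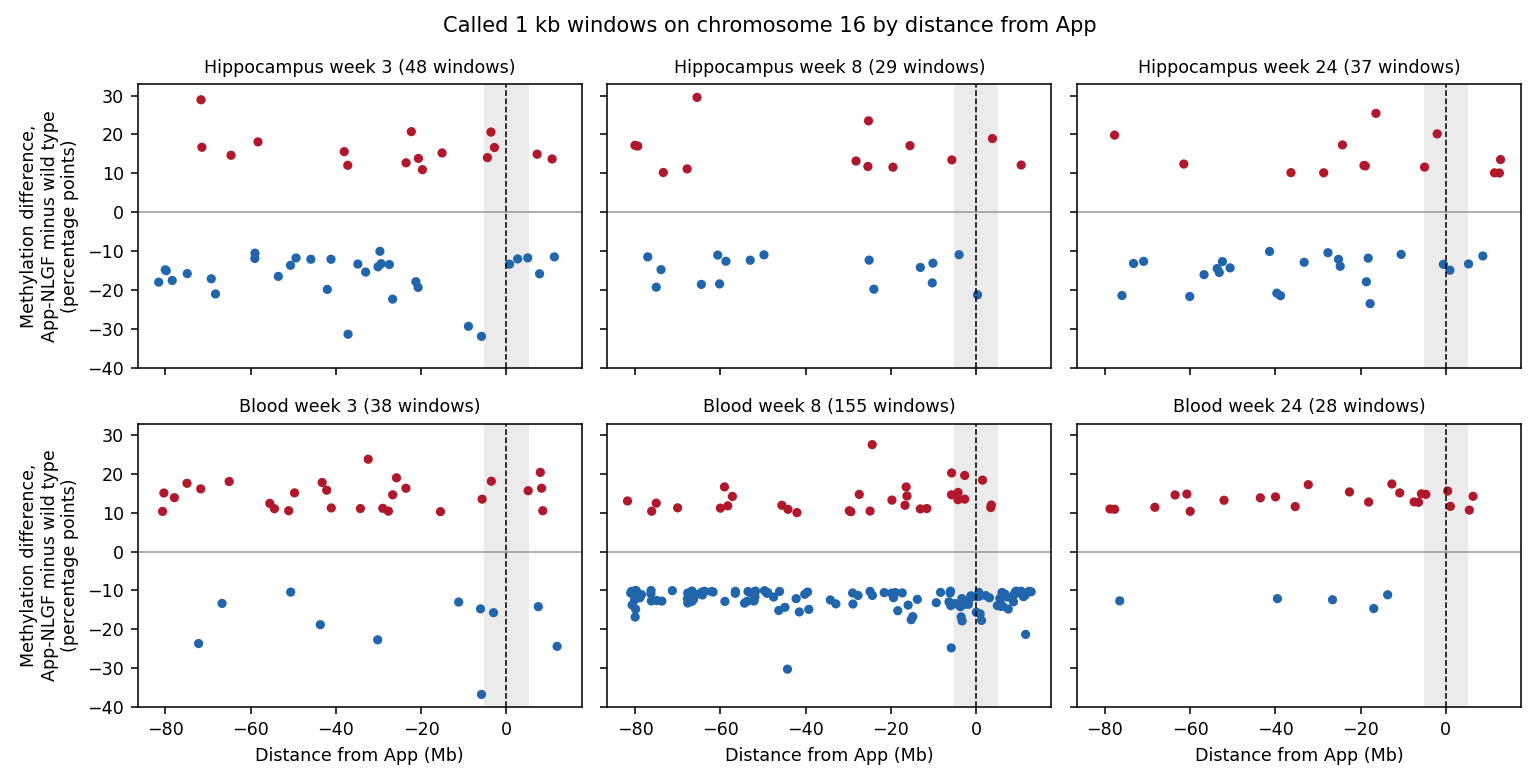
Methylation difference (App-NLGF minus wild type, percentage points) of the 335 chromosome 16 windows against distance from App (Mb), with 1 panel per tissue and age. Red points are higher and blue points lower in App-NLGF, the dashed line is App and the shading covers 5 Mb on either side; blood at week 8 has 124 of its 155 windows below 0 and blood at week 24 has 23 of its 28 above 0.

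Around App there was a stretch without called windows. App spans chr16:84952666-85175255 (mm10, 223 kb), and no window lay between 84357001 and 85210000, a stretch of 853 kb. It ranked 25 in length among the 330 gaps between neighbouring windows on chromosome 16, whose median was 177.5 kb and whose longest was 2088 kb. Beside App it holds the coding genes Mrpl39, a mitochondrial ribosomal protein gene, Jam2, a junction adhesion gene, Atp5j, a subunit of mitochondrial ATP synthase, and Gabpa, a transcription factor gene, and also Mir155, a microRNA gene of activated immune cells. A window absent from the list may have missed a threshold or been too thinly covered, so the stretch does not show equal methylation.

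The windows nearest to App lay on the side of its transcription start. App is read from the minus strand, so its start faces the higher coordinates. The nearest window of all, chr16:85210001-85211000, was lower in blood at week 8 by -15.6 points with an adjusted p of 0.0968 per the authors' deposited table, and stood 34.7 kb from the gene. The next, 90.7 kb from App, was also lower in blood at week 8, at -11.6 points with an adjusted p of 0.0806 per the authors' deposited table. In hippocampus at week 8 the nearest was chr16:85496001-85497000, 321 kb from App inside Cyyr1, a gene for a small membrane protein, at -21.2 points with an adjusted p of 0.0307 per the authors' deposited table. In blood at week 24 it stood 423 kb away and was higher, at 15.6 points with an adjusted p of 0.0780 per the authors' deposited table. On the other side, past the end of the gene, the nearest lay 596 kb away in hippocampus at week 24, at -13.4 points with an adjusted p of 0.0927 per the authors' deposited table. Hippocampus at week 3 had none nearer than 0.724 Mb, and blood at week 3 none nearer than 3.03 Mb.

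Within 5 Mb of App there were 42 windows, 16 higher and 26 lower in App-NLGF. That is 4.11 windows per Mb over 10.2 Mb, against 3.34 per Mb on the rest of chromosome 16 and 3.43 per Mb on other chromosomes. The list of blood at week 8 gave 25 of the 42, at 2.45 windows per Mb, against 1.48 per Mb on the rest of chromosome 16. Without that list there were 17 windows near App, 1.66 per Mb, against 163 windows or 1.86 per Mb on the rest. The direction thus turned at the deposited limits, and the density without that list was not computed at stricter ones. Hippocampus had 6, 3 and 3 windows within 5 Mb at weeks 3, 8 and 24, and blood had 2 at week 3 and 3 at week 24. The 3 of blood at week 24 were all higher. The blood windows of week 8 near App were also larger than the rest of that list's chromosome 16 windows, with a median absolute difference of 13.5 points against 11.3 points. Of its 21 windows of at least 15 points on the chromosome, 8 lay within 5 Mb of App, or 0.783 per Mb, against 13 or 0.148 per Mb on the rest. With an adjusted p under 0.05, by contrast, that list had 10 windows near App, 0.978 per Mb, against 91 or 1.04 per Mb on the rest. At that limit hippocampus had 0.391 per Mb near App against 0.125 on the rest at week 3. It had 0.196 against 0.125 at week 8 and 0.196 against 0.182 at week 24. Blood had 0.0978 against 0.182 at week 3 and 0.196 against 0.0911 at week 24. In these lists the values rest on 1 to 4 windows near App. Near App 52.4% of windows lay over 10 kb from any annotated gene, against 26.6% on the rest of the chromosome.

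**Figure D3:**
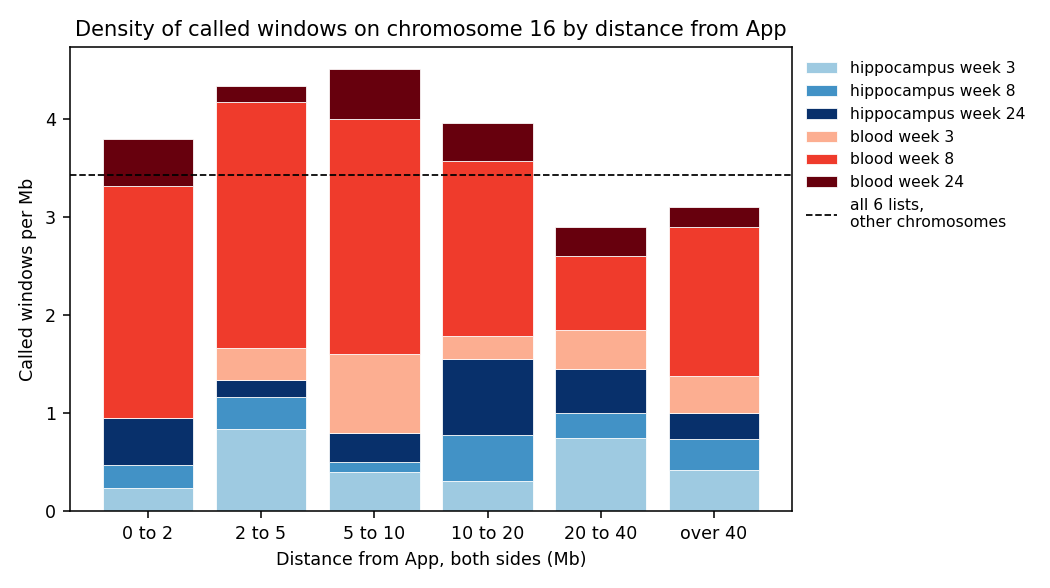
Called windows per Mb of chromosome 16 (vertical axis) by distance from App on both sides (Mb, horizontal axis), with each bar divided by tissue and age and the dashed line at the 3.43 per Mb of other chromosomes. Blood at week 8, in bright red, makes up 10 of the 16 windows within 2 Mb and 24 of the 45 between 5 and 10 Mb; the lowest bar, 2.90 per Mb, is at 20 to 40 Mb.

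The genes within 5 Mb of App that carried windows fell into a few kinds. Ncam2, a neural cell adhesion gene at chr16:81200697-81624290, held 6 windows in 424 kb, or 14.2 windows per Mb of gene. Per the authors' deposited table, 4 of them were lower in blood at week 8, at -14.1, -14.2, -16.8 and -12.1 points with adjusted p of 0.0878, 0.0626, 0.0546 and 0.0671. A further window was higher in hippocampus at week 3, at 20.6 points with an adjusted p of 0.0712, and another in blood at week 3, at 18.1 points with an adjusted p of 0.0732, both per the authors' deposited table. The windows of blood at week 3 and week 8 stood 19 kb apart and had opposite signs.

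Adamts1 and Adamts5, neighbouring genes for secreted proteases that cut proteoglycans, both carried lower windows. Adamts1 had 1, over its promoter shown above, at -10.5 points in blood at week 8 with an adjusted p of 0.0429 per the authors' deposited table. Adamts5, at chr16:85858157-85901125, had chr16:85899001-85900000 lower in hippocampus at week 3, at -13.3 points with an adjusted p of 0.000689 per the authors' deposited table. Another window, chr16:85901001-85902000, 2 kb on, was lower in blood at week 8, at -11.5 points with an adjusted p of 0.000783 per the authors' deposited table. Both overlap Gm46558, a long noncoding RNA gene that starts within Adamts5, and the hippocampal one covers the Gm46558 promoter shown above. The adjusted p of the hippocampal window was the smallest of any chromosome 16 window in its list.

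Further above App, a window over the promoter of Ltn1, a ubiquitin ligase gene of ribosome quality control, was lower in blood at week 8, at -11.3 points with an adjusted p of 0.00322 per the authors' deposited table. Grik1, a kainate glutamate receptor gene, was at -11.9 points there with an adjusted p of 0.0203 per the authors' deposited table. Tiam1, an exchange factor gene for the GTPase Rac, was at -13.9 points there with an adjusted p of 5.78e-05 per the authors' deposited table, 4.97 Mb from App. Windows beside the keratin-associated genes Krtap24-1 and Krtap13-1 were higher in blood at week 8, at 11.3 and 12 points with adjusted p of 0.0951 and 0.0914 per the authors' deposited table.

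The share of window positions called in more than 1 list was the highest of the 20 chromosomes. Of the 331 positions on chromosome 16, 3 were called more than once, or 0.906%, against 15 of 8602 positions elsewhere, or 0.174%, and the next highest chromosome reached 0.528%. All 3 lay within 6 Mb of App, among 55 positions, and none among the 276 beyond, where the limit of 6 Mb was chosen after the values were seen. These are counts of 3, and no test was made of them. The comparisons use different libraries; the labels do not say whether blood and hippocampus came from the same animals.

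The window chr16:79105001-79106000, 5.85 Mb below App, was the only position of the 8933 in the whole series that was called in 3 lists. In the authors' deposited table it was lower by -31.9 points in hippocampus at week 3, -36.7 points in blood at week 3 and -24.8 points in blood at week 8. The adjusted p-values of the authors' deposited table were 0.00649, 0.0306 and 0.0253 in that order. The 3 decreases share their direction across 2 tissues, and the pair at week 3 are the 2 largest decreases on the chromosome. No gene lies within 10 kb of it. The window was not called at week 24 in either tissue or in hippocampus at week 8.

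The window chr16:86113001-86114000, 0.938 Mb above App, was lower in hippocampus at week 24 by -14.9 points and in blood at week 8 by -16.0 points, with adjusted p of 0.00817 and 0.000265 per the authors' deposited table. It too lies over 10 kb from any gene. The third, chr16:79948001-79949000, 5.00 Mb below App, had opposite signs. It was higher in hippocampus at week 24, at 11.6 points with an adjusted p of 0.0733, and lower in blood at week 8, at -13.4 points with an adjusted p of 0.0112, both per the authors' deposited table.

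**Figure D4:**
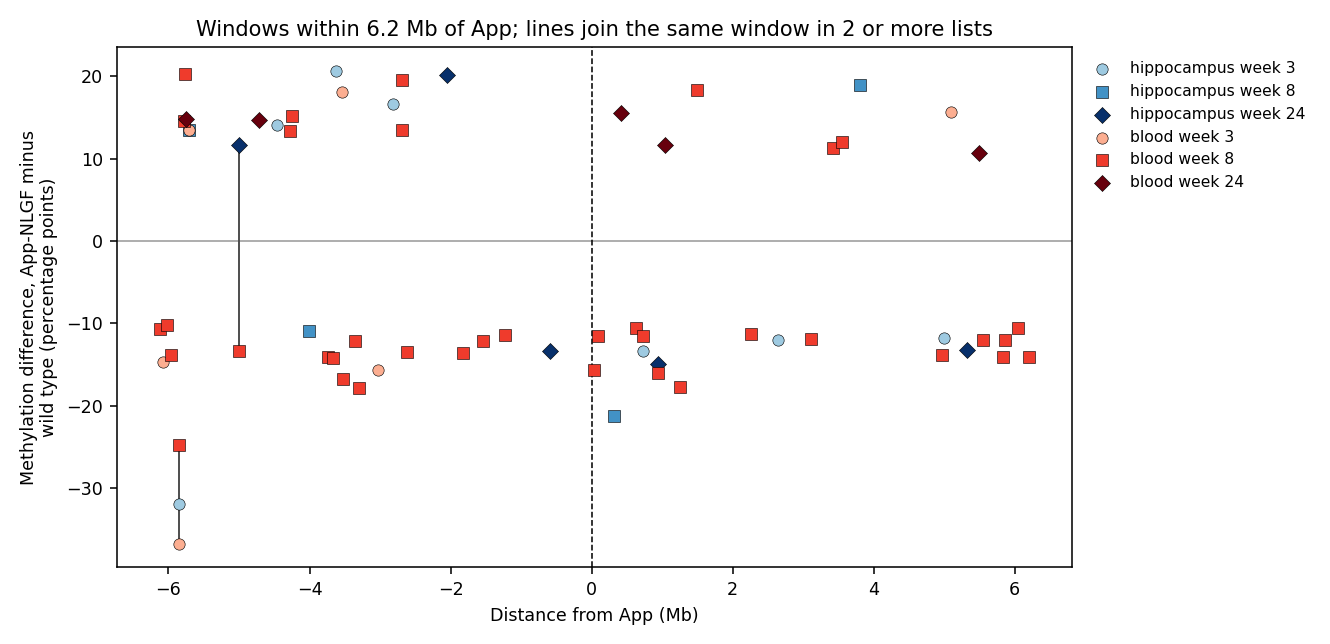
Methylation difference (App-NLGF minus wild type, percentage points, vertical axis) of each window within 6.2 Mb of App against its distance (Mb, horizontal axis), with colour for tissue and age. Vertical lines join a window called in more than 1 list; the line at 5.85 Mb below App joins 3 decreases of -24.8 to -36.7 points, and that at 5.00 Mb joins an increase to a decrease.

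The share of windows near one of another list was the highest on chromosome 16, but it counts the 7 windows at repeated positions again at every distance. It is thus no separate support, and the shares without those windows were not computed. A window of another list lay within 5 kb for 5.67% of chromosome 16 windows (19 of 335), against 2.50% elsewhere and at most 4.38% on any other chromosome. Within 10 kb the shares were 8.96% on chromosome 16 (30 windows) and 4.80% elsewhere, with at most 7.71% on another chromosome. Within 50 kb they were 29.6% and 20.6%, with at most 26.7%. Within 6 Mb of App 22% of windows had such a neighbour within 10 kb, against 6.16% farther out, and within 50 kb the shares were 33.9% and 28.6%. Of the 17 pairs of windows within 10 kb, 8 were lower in both lists, 3 were higher in both and 6 had opposite signs. The pairs are not independent, as the window called in 3 lists enters once for each pair of its lists. A Mgrn1 window also enters more than once. Most pairs include blood at week 8, where 124 of 155 chromosome 16 windows were lower. Blood at week 8 gave 155 of the windows, and without that list 1 of 179 positions on chromosome 16, or 0.559%, was repeated. Chromosomes 1, 7, 14, 15 and X each kept a repeated position without it too, and the share elsewhere was not computed.

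**Figure D5:**
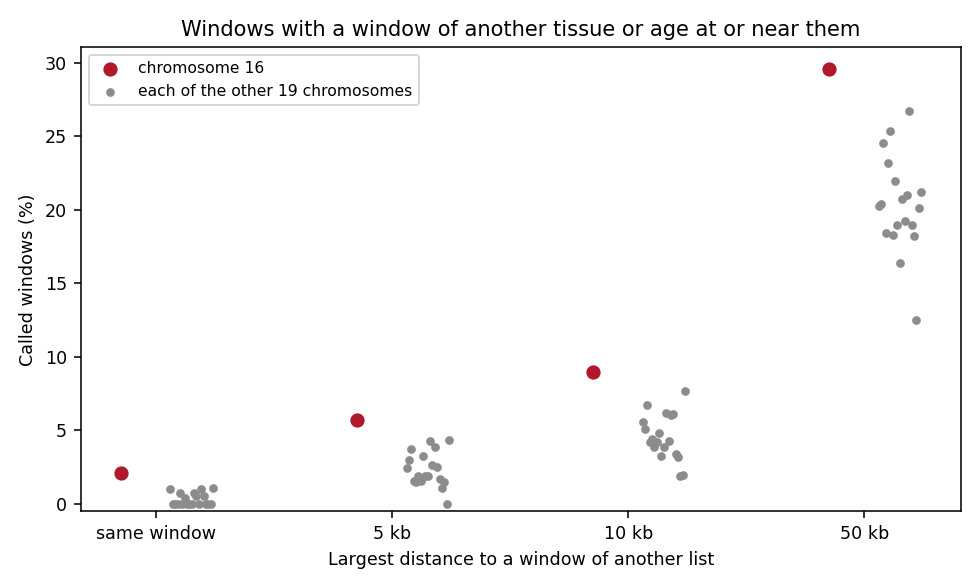
Share of called windows (%, vertical axis) that have a window of another tissue or age at the same position or within 5, 10 or 50 kb (horizontal axis). The red point is chromosome 16 and the grey points are the other 19 chromosomes; chromosome 16 is highest at each distance, at 2.09%, 5.67%, 8.96% and 29.6%.

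The window called in 3 lists stands at one end of a cluster of 8 windows at 6 positions in 145 kb, chr16:79105001-79250000, which drew on 5 of the 6 lists. The cluster's limits were chosen after the values were seen. Beside the 3 decreases it held 5 increases. In the authors' deposited table they were 14.6 and 20.2 points in blood at week 8, 14.8 points in blood at week 24, 13.5 points in hippocampus at week 8 and 13.5 points in blood at week 3. Their adjusted p-values per the authors' deposited table were 0.0694, 0.0635, 0.0545, 0.0331 and 0.0945 in that order. The increases of blood at weeks 8 and 24 stood 7 kb apart, and those of hippocampus at week 8 and blood at week 3 stood 4 kb apart. Hippocampus at week 24 had no window in the cluster. No gene lies inside it. Tmprss15, the enteropeptidase gene, lies 13.9 kb below it, and the next coding gene above is Ncam2, 1.95 Mb away. No other chromosome had windows of 5 lists within 150 kb, where 4 was the most. With stretches of 100 kb chromosome 16 had 4, as did 6 others, and with 200 kb chromosomes 3 and 17 also reached 5. With 300 kb 5 others did, chromosomes 2, 3, 5, 17 and X.

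Pairs of windows in genes elsewhere on the chromosome gave both like and unlike signs. Bdh1, a gene of ketone body metabolism, was lower in blood at week 8 and in hippocampus at week 3, at -10.3 and -16.5 points with adjusted p of 0.00307 and 0.0908 per the authors' deposited table, 4 kb apart. Pigz, a gene of the GPI anchor pathway, was lower in blood at week 8 and hippocampus at week 8, at -10.6 and -12.3 points with adjusted p of 0.0543 and 0.0448 per the authors' deposited table, 9 kb apart. At Zdhhc8, a palmitoyltransferase gene of the 22q11 stretch, neighbouring windows were lower in blood at week 8 and week 3, at -10.1 and -13.3 points with adjusted p of 0.000661 and 0.0993 per the authors' deposited table. Grin2a, an NMDA receptor subunit gene, had unlike signs 4 kb apart, at 12.4 points in blood at week 8 and -19.3 points in hippocampus at week 8, with adjusted p of 0.0912 and 0.0758 per the authors' deposited table. Mgrn1, a ubiquitin ligase gene, had windows of 3 lists in a row, 10 and 9 kb apart. In the authors' deposited table they were -10.3 points in blood at week 8, 17.2 points in hippocampus at week 8 and -14.8 points in hippocampus at week 3.

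Of the 335 windows 173 lay in a coding gene, 20 in a noncoding gene or pseudogene alone, 42 within 10 kb of a gene and 100 farther out, so 57.6% lay in a gene. The share inside a gene was 71.0% in blood at week 8 and between 39.6% and 54.1% in the other lists. Promoters, taken as 250 bases before to 50 after a start, were covered by 46 of the 155 windows of blood at week 8, and all 46 were lower in App-NLGF. That is 29.7%, against 29.4% of that list's windows on other chromosomes. In the other 5 lists 0 to 2 windows covered a promoter. The promoters under windows of blood at week 8 were CpG-rich, with a median of 22 CpGs per 300 bases and at least 10 in 60 of 64, against a median of 5 in chromosome 16 promoters without a window and 7 in all promoters of the table. At least 10 CpGs stood in 93.8% of the first, 38.7% of the second and 43.5% of the third, where the limit of 10 was chosen after the values were seen. CpG counts under that list's promoter windows on other chromosomes are not given, so these values do not show a trait of chromosome 16. The smallest adjusted p of the chromosome, 1.95e-08 per the authors' deposited table, belonged to a promoter window of blood at week 8. It lay at Lrch3, a gene for a leucine-rich repeat protein, at -10.3 points. Synj1, whose promoter is shown above, encodes synaptojanin, a phosphatase of synaptic vesicle recycling. Its window was lower in blood at week 8 by -14.1 points with an adjusted p of 1.11e-05 per the authors' deposited table. Olig2, a transcription factor gene of oligodendrocytes, had a promoter window at -10.5 points there with an adjusted p of 0.00206 per the authors' deposited table. The window that reached into the promoter of Cep97, a centrosomal protein gene, was higher in blood at week 3, at 11.1 points with an adjusted p of 0.0648 per the authors' deposited table.

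The 4 genes with the most windows, Epha6, Rbfox1, Lsamp and Ncam2, are long neuronal genes. Of 29 neuronal adhesion, guidance and synapse genes listed, 21 had a window, against 145 of the 679 coding genes of the chromosome, or 21.4%. The 21 are also counted among the 145. This list, like the gene lists below, was chosen with earlier results of these data known. Its share therefore does not show that neuronal genes hold more windows than others. Long genes have more room for windows, and the share was not set against genes of like length. The 21 genes held 60 windows, 18 higher and 42 lower, with a median of -11.8 points, against a median of -10.7 points over all 335. In hippocampus at week 24, 9 of their 10 windows were lower, against 24 of all 37 on the chromosome. In blood at week 24 all 6 were higher, against 23 of all 28.

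Epha6, an ephrin receptor gene, had 8 windows in 969 kb, or 8.25 per Mb of gene, 3 higher and 5 lower. Its largest was 27.5 points in blood at week 8 with an adjusted p of 0.0119 per the authors' deposited table. In hippocampus at week 8 it had 23.5 points at one window and -12.3 points at another, with adjusted p of 0.0792 and 0.0498 per the authors' deposited table. Rbfox1, a neuronal splicing regulator gene, had 7 windows in 1528 kb, or 4.58 per Mb, from 5 lists, the most lists of any gene on the chromosome. In the authors' deposited table its hippocampal windows were -17.5 points at week 3 and 19.8 points at week 24, with adjusted p of 0.00680 and 0.0737. Its blood windows per the authors' deposited table were 13.9 points at week 3, -11.9 and -11.1 points at week 8, and 10.9 points at each of 2 windows at week 24.

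Lsamp, an adhesion gene of the limbic system, had 6 windows in 2197 kb, all in blood, 3 higher and 3 lower. Its largest was -30.2 points at week 8 with an adjusted p of 0.0724 per the authors' deposited table. Cadm2, a synaptic adhesion gene, had -23.5 and -11.8 points in hippocampus at week 24 with adjusted p of 0.0421 and 0.0427 per the authors' deposited table. In blood it was lower at week 8, at -10.6 points, and higher at week 24, at 12.7 points, with adjusted p of 0.0326 and 0.0674 per the authors' deposited table. Robo2, a receptor gene for the guidance cue Slit, was lower in hippocampus at week 8 at 2 windows, -18.1 and -13.1 points, and at week 24, at -10.8 points, and was higher in blood at week 24, at 15.1 points, all per the authors' deposited table. The adjusted p-values of these 4 windows per the authors' deposited table were 0.0192, 0.0395, 0.0454 and 0.0400. Kalrn, an exchange factor gene of dendritic spines that is not among the 29 genes listed, was lower in all 3 of its lists. In the authors' deposited table it had -13.6 points in hippocampus at week 3, -14.3 points in hippocampus at week 24 and -10.4 points in blood at week 3. Dscam, a cell adhesion gene of neuronal wiring, was lower at 3 blood windows, at -24.4 points at week 3 and -21.3 and -11.2 points at week 8 per the authors' deposited table.

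Also outside the neuronal list, Lpp, a focal adhesion gene, had windows in 4 lists whose signs differed by tissue. Per the authors' deposited table it was lower in hippocampus, at -18.4 points at week 8 and -21.6 points at week 24, with adjusted p of 0.00575 and 0.0384. In blood it was higher, at 11.2 points at week 8 and 10.4 points at week 24, with adjusted p of 0.0890 and 0.0943 per the authors' deposited table. Adcy5, an adenylyl cyclase gene, was lower in hippocampus at week 8, at -10.9 points, and in blood was higher at week 3, at 15.1 points, and lower at week 8, at -10.1 points, per the authors' deposited table. Mrtfb, a coactivator gene of serum response factor, held the largest increase on chromosome 16 in hippocampus at week 3, at 28.9 points with an adjusted p of 0.0266 per the authors' deposited table.

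Of the 93 orthologues of human chromosome 21 genes listed, 34 had a window, or 36.6%, against 21.4% of the coding genes of chromosome 16. Their 42 windows were 4 higher and 38 lower. Blood at week 8 gave 28 of the listed genes and 31 windows, all lower, with a median of -11.6 points. That is 30.1% of the genes, against 15.0% of all coding genes of the chromosome, in a list where 124 of 155 chromosome 16 windows were lower. Each of the remaining lists had between 1 and 4 of these genes. Krtap24-1 and Krtap13-1 lie in the stretch beyond App that matches human chromosome 21 but were not among the 93 genes. The windows beside them, given above, were higher in blood at week 8. The uniform direction thus holds for the genes listed and not for every gene of that stretch, and the shares depend on which genes were listed. Of 12 genes listed for roles in App biology on the chromosome, 4 had a window, or 33.3%, against 21.4% of the coding genes. All were windows of blood at week 8, in which 15.0% of coding genes had one and 124 of 155 chromosome 16 windows were lower. The 4 genes were all lower there. They were Adamts1 and Synj1, given above, Dyrk1a, a kinase gene that phosphorylates App and tau, at -10.6 points, and Ets2, a transcription factor gene, at -10.2 points, with adjusted p of 0.0410 and 0.0858 for the last pair per the authors' deposited table. App, the member that was edited, had none.

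The 22q11 orthologues, 42 on the chromosome, had 7 genes with a window, or 16.7%, against 21.4% of the coding genes of the chromosome, and in blood at week 8 14.3%, against 15.0%. Their 6 windows, 5 in blood at week 8 and 1 in blood at week 3, were all lower, where 124 of the 155 chromosome 16 windows of blood at week 8 were lower. None came from hippocampus, whose lists held a window in 3.24%, 2.21% and 2.50% of the coding genes at weeks 3, 8 and 24. Among 41 immune and blood genes 11 had a window, or 26.8%, against 21.4% of the coding genes, with 5 windows higher and 11 lower, against 123 higher and 212 lower over the chromosome. Runx1, a transcription factor gene of blood formation, was lower in blood at week 3 and week 8, at -14.2 and -14.8 points with adjusted p of 0.0535 and 0.00114 per the authors' deposited table. Ifnar2, a subunit gene of the interferon receptor, was lower in blood at week 8, at -14.0 points with an adjusted p of 2.44e-05 per the authors' deposited table. A window within 10 kb of Ifngr2, also an interferon receptor subunit gene, was higher in blood at week 24. It stood at 14.2 points with an adjusted p of 0.0798 per the authors' deposited table. Il1rap, an interleukin receptor subunit gene, was higher in hippocampus at week 3 and blood at week 8, at 18.1 and 11.7 points with adjusted p of 0.0490 and 0.0586 per the authors' deposited table.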

How the data were processed

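Whole-genome bisulfite libraries of hippocampus and blood, 120 in 12 groups of 10, took their groups from the titles. Each tissue had its own DNA extraction kit, per the labels' protocols. The authors used methylKit, Bismark, Trim Galore and FastQC and the mm10 build, per the submitters' processing notes. The sources used here do not give versions, coverage filter or adjustment method. The p-values, adjusted p-values and methylation differences (percentage points) are the authors' own, as deposited. Bisulfite sequencing reads a cytosine replaced by thymine in the genome as unmethylated, and base differences between the genotypes were not analysed here.

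From the deposited windows, distance from App, direction, repeats and genes (within 10 kb, table of GRCm38.p6) were computed with Python 3.11.15 and pandas 2.3.3. No test was run here. The numbers of tested windows, 2303865 to 2330486 per comparison, were recovered from p over adjusted p as Benjamini-Hochberg ranks, an assumed method. Of these ranks, 78.1% to 89.9% came out whole within 0.02. The step was checked on simulated p-values adjusted by that same method, which cannot show that the authors used it. Of 1078 chromosome 16 promoters in RefSeq's table, 69 lay under a window. Named genes are those within 5 Mb of App, near a window of another list, among the 5 largest increases or decreases or 3 smallest adjusted p per list, with windows in 3 or more lists, or in a gene list; Lrch3 and Cep97 also stand for promoters. The members, gene lists and rules were chosen with earlier results of these data known.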

Additional observations from a re-analysis of the deposited data

How the results depend on the processing

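Of 75 recomputed values, 52 stayed within their interval or 1.5 times and 23 did not. At an adjusted p under 0.05, 5.91% of the windows of hippocampus at week 8 lay on chromosome 16; higher windows made up 12.9% in blood at week 8, against 7.19% elsewhere; and windows within 5 Mb of App numbered 2.05 per Mb over all lists, 0.0978 in blood at week 3 and 0.978 in blood at week 8. At 15 points or more, 2.19% of blood at week 24 lay on chromosome 16, with 100.0% of its 5 windows higher; 33.3% were higher in blood at week 8, against 24.7% elsewhere, so that chromosome 16 no longer had the highest share there; and windows near App came to 1.57 per Mb over all lists, 0.196 in hippocampus at week 3, 0.0978 in hippocampus at week 24, 0.783 in blood at week 8 and 0.0978 in blood at week 24. These limits leave fewer windows by construction. Over all lists the rest of chromosome 16 had 1.74 windows per Mb at an adjusted p under 0.05 and 0.888 at 15 points or more. The density over all lists thus stayed higher near App than on the rest at both limits. Within 2 Mb of App, hippocampus at week 3 had 0.237 windows per Mb, hippocampus at week 24 0.474, blood at week 3 0.0 and blood at week 24 0.474; within 10 Mb, blood at week 3 had 0.494. Without blood at week 8, chosen after seeing the data, all lists had 1.66. Repeats of positions numbered 4.53% within 5 kb, 7.85% within 10 kb and 28.7% within 50 kb, and 51.6% of windows lay in coding genes alone. The cause of the other shifts was not tested.

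The depth of the libraries is unknown, which limits how far any single window can be trusted. Leaving out a replicate was not possible without values per library. No paired analysis was possible because the deposited table has no values per library.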
